A study of Mus musculus with 2 samples.

Results

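The genes described here encode the proteins of the mitochondrial ribosome, named Mrpl for the large subunit and Mrps for the small subunit. They were taken by name from the table of ribosome footprints: a gene was a member if it had a protein-coding transcript and a symbol starting with Mrpl or Mrps followed by a digit. This gave 77 genes of the 45578 in the table, 21874 of which were protein coding. Active ribosome profiling with RiboLace captures translating ribosomes on beads that carry a puromycin analogue, and the mRNA pieces shielded by those ribosomes are sequenced. Brain was taken from control mice on postnatal day 5, and the 2 libraries are labelled as biological replicates of a single group. These mice had the genotype Smn+/-; SMN2tg/0 on a congenic FVB background, meaning that every library came from animals with a disrupted copy of the mouse Smn gene and a human SMN2 transgene. The series' design text speaks of a mouse and the labels of biological replicates, so the number of animals behind each library is not settled here. P-values below measure only the spread between these libraries.

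Mitochondria keep their own ribosome, which translates the few messenger RNAs of the mitochondrial genome, all of them for membrane subunits of the respiratory chain and ATP synthase. Its ribosomal RNAs are made inside the organelle, but its proteins are encoded in the nucleus, translated on cytosolic ribosomes and imported. The footprints counted here are therefore those of cytosolic ribosomes at work on mitoribosome parts. Some of these proteins have a counterpart in the bacterial ribosome and others are found only in mitochondria. Each protein is present once per ribosome, apart from the stalk protein Mrpl12, which is present in several copies.

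Replicate 1 held 343552 counts over all genes and replicate 2 held 120282, so replicate 1 is the more precise. The tissue label was compared with marker lists. All 6 neuronal markers had counts in both libraries and together held 0.718% of counts in replicate 1 and 0.737% in replicate 2. Of the 5 astrocyte and radial glia markers and the 5 oligodendrocyte lineage markers none was at 0. The liver markers Alb and Apoa1 had 0 counts in both libraries, where the limit set by a count of 0 is 0.000873% in replicate 1 and 0.00249% in replicate 2. The 5 erythroid markers held 0.410% and 0.385%, and the 4 skeletal muscle markers 0.0221% and 0.0208%. Of the muscle counts, Acta1, which shares sequence with other actins, supplied 70 of 76 and 22 of 25. Myh3 had 2 counts in each library, Myh8 had 4 and 1, and Ckm was at 0. The part of blood or other cells in the values below was not tested. Fewer cells of a type and less RNA per cell cannot be told apart in whole tissue.

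Every one of the 77 genes had footprints in both libraries, counted on its transcript with the highest count. Together they had 881 counts in replicate 1, or 0.256% of the gene total (95% Wilson interval 0.240 to 0.274), and 275 counts in replicate 2, or 0.229% (0.203 to 0.257). The intervals overlap, and the mean share was 0.243% ± 0.0197 (SD, n = 2). These are shares of all gene counts, and the libraries differ in how many of those fell on protein-coding genes. It was 279531 of 343552 in replicate 1 and 87925 of 120282 in replicate 2. All intervals here cover counting error only: amplified reads carried no molecular identifier and may repeat a molecule. Counts per gene were low, from 4 to 37 over both libraries with a median of 13. In replicate 2 the count was 1 for 13 of the genes, so levels of single genes there carry wide error. The 10 genes with the most counts held 25.3% of the family's counts in replicate 1 and 22.9% in replicate 2. The family is therefore not carried by a few abundant members.

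To compare genes, the count of the protein-coding transcript was scaled to the effective library size (CPM) and divided by its coding length, giving a density in CPM per 1000 coding nucleotides. The median density of the family was 45.8 in replicate 1 and 42.1 in replicate 2. The median of protein-coding genes was 4.51 and 3.07. By the mean of the libraries all 77 genes lay above the coding median of 4.61, while in replicate 2 the coding transcripts of Mrpl17 and Mrpl27 were at 0. The median member stood at percentile 84.9 of 21874 protein-coding genes, a set that includes genes silent in brain. Coding length differs too, with a median of 567 nucleotides in the family and 1140 in protein-coding genes. Density fell with coding length over protein-coding genes (Spearman correlation -0.393), and the percentile was not computed at like lengths.

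**Figure D1:**
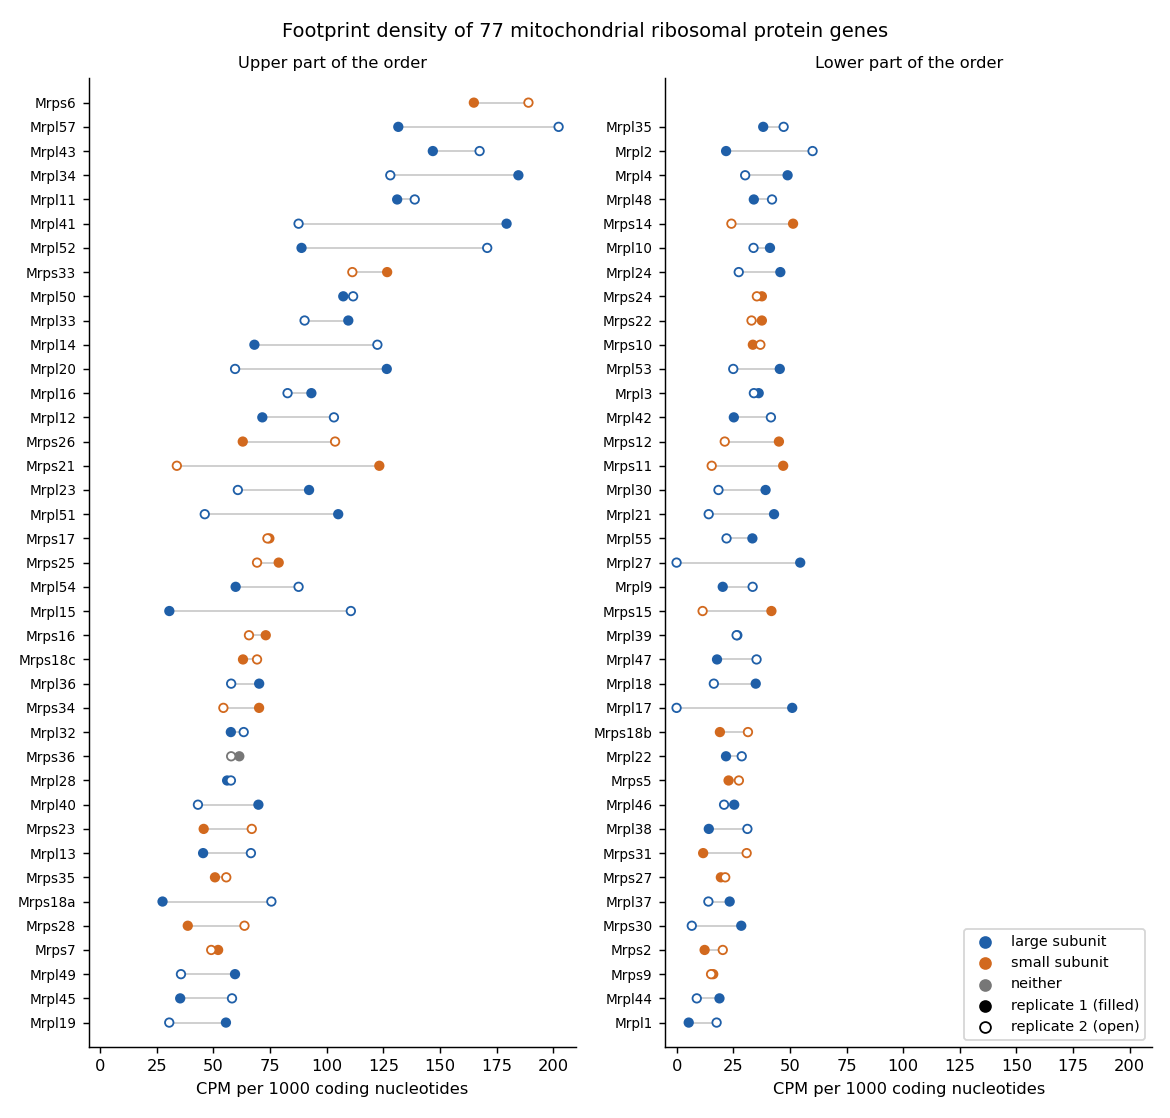
Footprint density of each of the 77 genes in CPM per 1000 coding nucleotides, ordered by the mean of the libraries from Mrps6 at the top left to Mrpl1 at the bottom right. Filled points are replicate 1, open points replicate 2, and a grey line joins the libraries of a gene. Colour gives the subunit. Large- and small-subunit genes are mixed along the order.

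Densities within the family ranged widely, from 11.5 for Mrpl1 to 177 for Mrps6. With the counts of both libraries pooled, the highest gene was Mrpl34 at 171 and the lowest Mrpl1 at 8.23, a 20.8-fold range whose lower end rests on 4 counts. The exact 95% counting interval of the pooled density lay wholly above the family median for 19 genes and wholly below it for 11, and included it for 47. Many neighbours in the order thus do not differ beyond counting error.

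The small-subunit gene Mrps6 had the highest mean density, but led in neither library: Mrpl34 was highest in replicate 1 at 185 and Mrpl57 in replicate 2 at 202. Its 23 and 8 counts gave a density of 165 in replicate 1 and 189 in replicate 2, or 177 ± 17.0 (SD, n = 2). Mrpl57, a mitochondrion-specific protein of the large subunit, followed with 15 and 7 counts and 167 ± 50.02 (SD, n = 2). Mrpl43, also specific to mitochondria, had 26 and 9 counts and 157 ± 14.6 (SD, n = 2). Mrpl34 had 19 and 4 counts and 156 ± 40.0 (SD, n = 2). These leading genes hold both conserved and mitochondrion-specific proteins, and their order is not resolved: the pooled interval of Mrps6, 116 to 242, covers the pooled densities of the others.

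Mrpl11, at the base of the stalk that recruits translation factors, had the most counts of the family, 28 in replicate 1 and 9 in replicate 2. Its density was 135 ± 5.48 (SD, n = 2), among the closest agreements between the libraries, while its pooled counting interval was 93.5 to 183. Mrpl41 had 27 and 4 counts and 133 ± 64.9 (SD, n = 2), a far wider spread at a like mean. Mrpl52 had 12 and 7 counts and a density of 130 ± 57.9, Mrps33 15 and 4 counts and 119 ± 10.9, and Mrpl50 19 and 6 counts and 109 ± 3.08 (each SD, n = 2). Mrpl33, the shortest member with 198 coding nucleotides, had 8 and 2 counts and 99.8 ± 13.6 (SD, n = 2).

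By CPM without regard to length, Mrpl11 led at 78.1 CPM ± 3.17, followed by Mrpl43 at 75.4 ± 7.01, Mrps6 at 66.9 ± 6.44 and Mrpl16 at 66.5 ± 5.62 (each SD, n = 2). Mrpl15 came next at 62.7 CPM ± 50.3 (SD, n = 2), a mean that rests on replicate 2. Mrps26, Mrpl41, Mrpl12, Mrpl50 and Mrpl57 completed the first 10, between 54.7 and 51.6 CPM.

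At the other end, Mrpl1, which forms the mobile L1 stalk near the site where spent tRNA leaves, had 2 counts in each library. Its density was 11.5 ± 8.70 (SD, n = 2), with a pooled counting interval of 2.24 to 21.1. Mrpl44, near the exit of the peptide tunnel, had 7 and 1 counts and 13.9 ± 7.09. Mrps9 had 7 and 2 counts and 15.7 ± 0.669, and Mrps2 had 4 and 2 counts and 16.4 ± 5.67 (each SD, n = 2). For Mrps9 the pooled counting interval was 7.29 to 30.3, far wider than the SD. Mrps30, a large-subunit protein despite its name, had 14 and 1 counts and 17.6 ± 15.4 (SD, n = 2). None of these 5 genes passed the count filter used for the test between libraries.

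Among the genes that passed that filter, the lowest densities belonged to Mrpl19 with 43.0 ± 17.7, Mrps35 with 53.1 ± 3.52, Mrpl28 with 56.9 ± 1.18, Mrps34 with 62.2 ± 11.1 and Mrpl15 with 70.6 ± 56.6 (each SD, n = 2). Mrps35 and Mrpl28 agreed closely between the libraries. Their pooled counting intervals, 33.2 to 77.1 and 34.9 to 86.2, are far wider than these SDs, so the SDs do not give the precision of the values. Mrpl15 did not, at 30.5 in replicate 1 and 111 in replicate 2.

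By place in the ribosome, the 3 stalk proteins Mrpl10, Mrpl11 and Mrpl12 had densities from 37.6 to 135. Mrpl12, the protein present in several copies, had 16 and 7 counts and a density of 87.3 ± 22.3 (SD, n = 2). That was 2.04 times the median of the large-subunit genes, 1.57 times in replicate 1 and 2.42 times in replicate 2. Mrpl12 ranked 14 of 77, so 13 genes whose products are present once per ribosome had a higher density. All of these but Mrpl16 have a shorter coding length than the 606 nucleotides of Mrpl12, and ranks were not compared at like lengths. The pooled counting interval of Mrpl12, 50.02 to 118, covers the pooled densities of Mrpl52, Mrpl50, Mrpl33, Mrpl14, Mrpl20 and Mrpl16. The rest of the 13 lie above it. Whether the number of copies per ribosome bears on density was not tested. Mrpl10, the binding partner of Mrpl12, had 12 and 3 counts and 37.6 ± 5.14 (SD, n = 2).

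The 7 proteins around the tunnel exit (Mrpl22, Mrpl23, Mrpl24, Mrpl39, Mrpl44, Mrpl45 and Mrpl47) had densities from 13.9 to 76.5, with a median of 26.8 in replicate 1 and 28.8 in replicate 2. Both medians were below those of the family. All of these genes but Mrpl23 had coding lengths above the family median of 567 nucleotides, and density fell with coding length. The 25 longest members had medians of 26.8 and 30.5. A comparison at like lengths was not made. The 4 proteins near the peptidyl transferase centre, Mrpl2, Mrpl3, Mrpl4 and Mrpl27, had mean densities from 27.3 to 40.9. Mrps12, of the decoding centre, had 7 and 1 counts and 33.2 ± 16.9 (SD, n = 2). The S18 family has 3 mitochondrial paralogs. Mrps18c had 9 and 3 counts and 66.1 ± 4.38, Mrps18a, which sits in the large subunit, 6 and 5 counts and 51.5 ± 34.0, and Mrps18b 4 and 2 counts and 25.3 ± 8.75 (each SD, n = 2). The spread of Mrps18a spans the values of its paralogs. Mrps36 had 7 and 2 counts and 59.6 ± 2.54 (SD, n = 2). It carries a ribosomal name but is known as a subunit of the 2-oxoglutarate dehydrogenase complex, and it was placed in neither subunit here.

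The 50 large-subunit genes had a median density of 45.7 in replicate 1 and 42.6 in replicate 2, and the 26 small-subunit genes 46.4 and 36.2. In summed counts per summed coding length the large subunit was 1.14 times the small, with an exact 95% interval of 0.985 to 1.32 in replicate 1 and 0.871 to 1.49 in replicate 2. Neither library alone separates the subunits; with the libraries pooled the interval was 1.002 to 1.29. Per transcript length the pooled ratio was 1.03 (0.911 to 1.17), and with the counts of all isoforms summed it was 0.937 (0.863 to 1.02). With the longest coding isoform it was 1.18 (1.03 to 1.34), and with subunits assigned by gene name 1.21 (1.07 to 1.37). The difference between the subunits did not hold under every way of counting.

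The 46 genes with a bacterial counterpart and the 30 mitochondrion-specific genes were not separated either. The ratio of specific to conserved genes was 0.952 (exact 95% interval 0.830 to 1.09) in replicate 1 and 1.06 (0.822 to 1.36) in replicate 2. Within the large subunit the ratio was 0.953 (0.805 to 1.13) and 0.981 (0.718 to 1.33). Within the small subunit it was 0.958 (0.750 to 1.22) and 1.25 (0.796 to 1.97). The intervals leave room for differences of these sizes. In all, 9 such ratios between gene groups were computed, apart from other length settings, with no p-value.

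Short members had higher densities than long ones. Coding lengths ran from 198 to 1329 nucleotides with a median of 567. The 26 shortest genes, up to 480 nucleotides, had a median density of 81.8 in replicate 1 and 67.4 in replicate 2. The 26 genes of 483 to 744 nucleotides had 45.5 and 45.2, and the 25 longest, from 756 nucleotides, 26.8 and 30.5. The order was the same in both libraries.

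Summed counts per gene barely moved with coding length, with medians of 13.5, 11.5 and 13.0 in the 3 length classes. Across the 77 genes the Spearman correlation of coding length with the summed count was -0.00295 and with density -0.628. The densities of all genes share the same libraries, and density holds the coding length in its denominator. How far untranslated regions add to the counts is not given in the sources used here, and the Spearman correlation of UTR length with density was 0.0432. Per 1000 nucleotides of transcript the correlation was -0.432, and the medians of the length classes in that unit were 34.5, 18.9 and 13.3 CPM in replicate 1 and 29.6, 18.1 and 14.5 in replicate 2. The correlation of coding length with density was also negative in other genes. It was -0.393 over 14289 protein-coding genes with a count and -0.297 over the 6866 of these in the family's range of lengths. It was -0.339 over 76 cytosolic ribosomal proteins and -0.468 over 80 respiratory chain subunits.

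**Figure D2:**
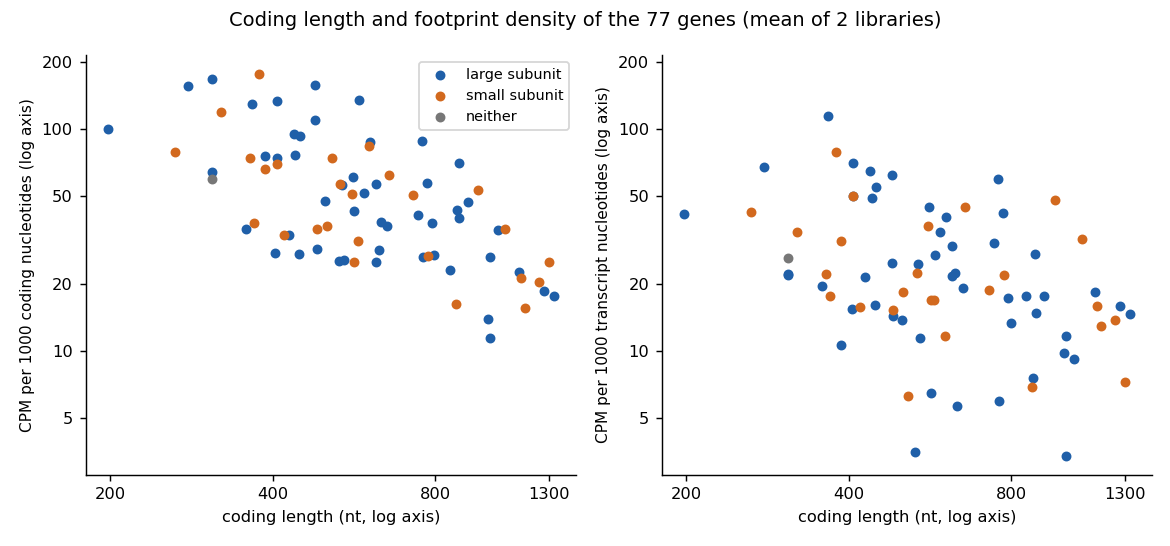
Coding length in nucleotides against footprint density of the 77 genes, as the mean of both libraries, on log axes. The left panel gives CPM per 1000 coding nucleotides and the right panel CPM per 1000 transcript nucleotides. Points fall from short to long genes in both panels, with a Spearman correlation of -0.628 on the left and -0.432 on the right.

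The libraries were then compared gene by gene. With a mean of at least 10 counts required, 17 of the 77 genes could be tested, 13 of the large and 4 of the small subunit. Of protein-coding genes 20.1% passed, a share near that of the family, and of all genes 11.9%. Mrpl23 stood just inside this threshold with a sum of 20 counts. Mrpl4, Mrpl40, Mrpl52, Mrps22, Mrps25 and Mrps33 stood just outside it with 19. A 2-sided exact binomial test against the ratio of the effective library sizes, adjusted by the Benjamini-Hochberg method over 5436 genes, called 0 of the 17. Over all genes it called 4.14%, and over protein-coding genes 0.956%. At an unadjusted exact p under 0.05 the count was 1 of 17, against 9.6% of all genes and 5.62% of protein-coding genes. edgeR's exact test with a preset coefficient of variation of 0.2 called 0, against 2.41% and 0.182%. At 17 genes and these depths, a count of 0 is near the background of coding genes.

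The gene with the unadjusted call was Mrpl15, a core protein of the large subunit. Its counts were 10 and 11, the only gene of the 77 with more counts in the shallower library. The log2 ratio of replicate 2 over replicate 1, on log2(CPM + 1), was 1.82 (adjusted exact binomial p = 0.0793). With isoforms summed the adjusted exact p was 0.00783, but such a sum may count the same fragment more than once. The next highest ratios were those of Mrps26, with 14 and 8 counts and a log2 ratio of 0.90, and Mrpl57, with 0.61. The lowest were those of Mrpl20, with 21 and 3 counts and -1.06, Mrpl41 with -1.01 and Mrpl19 with 18 and 3 counts and -0.84. Apart from Mrpl15, none of these had an unadjusted exact p under 0.05.

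Over the 17 tested genes the median log2 ratio was 0.13, with 12 above 0 and 5 below. Over all 5436 genes it was 0.0041. The sign depends on the processing: it was -0.069 when library totals set the scale, which also lowers the median of all genes to -0.20, and -0.022 when a mean of 5 counts was enough, equal to the median of all genes there. Over all 77 genes the summed level was 2388 CPM in replicate 1 and 2456 CPM in replicate 2, a ratio of 1.03 (exact 95% interval 0.895 to 1.18). A difference of the family as a whole within these bounds was not detectable at this depth. The 2 RNAs of the same ribosome differed far more between the libraries: mt-Rnr1 had a log2 ratio of 3.45 and mt-Rnr2 one of 3.84. These RNAs are transcribed in mitochondria, and their fragments need not be footprints.

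**Figure D3:**
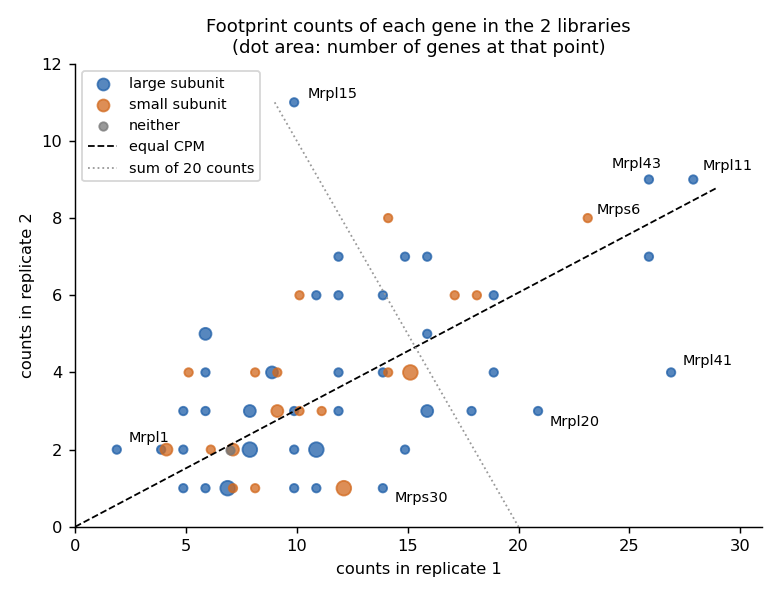
Counts of each of the 77 genes in replicate 1 (horizontal) and replicate 2 (vertical). Dot area gives the number of genes at a point, colour the subunit, and points are shifted slightly sideways by subunit. The dashed line marks equal CPM and the dotted line a sum of 20 counts, the threshold of the test. Mrpl15, at 10 and 11 counts, lies farthest above the dashed line among the tested genes.

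Across the 77 genes the densities of the libraries had a Spearman correlation of 0.657. The points share the coding length in both values, so part of this agreement is built in.

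Isoforms affect these values. The 77 genes had 287 transcripts, with 17 genes having only 1 transcript and a maximum of 11 per gene. Protein-coding transcripts, 144 in all, held 1275 of the 1989 transcript counts in replicate 1 and 354 of 542 in replicate 2. For 9 genes the transcript with the highest count was not annotated as protein coding. In Mrps26 the retained-intron transcript had 14 and 8 counts and the coding one 14 and 7. In Mrps34 a nonsense-mediated decay transcript had 17 and 6 counts and the coding one 17 and 4. The others were Mrpl17, Mrpl23, Mrpl27, Mrps5, Mrps9, Mrps11 and Mrps14. These transcripts share exons with the coding ones, so the counts do not show that the non-coding form was on ribosomes.

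How fragments that match several transcripts were assigned is not given in the sources used here. In Mrpl17 the coding transcript of 3848 nucleotides had 10 and 0 counts, while a coding transcript of 380 nucleotides had 6 and 3. The highest transcript count of a gene averaged 14.1 in replicate 1 and 4.29 in replicate 2 for the 17 genes with 1 transcript. For the 9 genes with 7 to 11 transcripts it averaged 7.78 and 3.56. Summed over transcripts, the same 9 genes averaged 38.2 and 11.1 counts. The median density was 60.5 for genes with 1 transcript, 43.0 with 2 to 3, 38.8 with 4 to 6 and 35.3 with 7 to 11. Whether the number of annotated transcripts sets part of the order of densities was not tested. Pseudogenes add a like uncertainty: Mrpl23-ps1 had 14 and 6 counts, the same as the leading transcript of Mrpl23. Mrpl48-ps had 5 and 0, and of the 3 pseudogenes of Mrps36 the highest had 5 and 1.

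The mitoribosome also holds proteins without the Mrp name, and 6 of these were listed. Their density in summed counts per coding length was 0.997 times that of the Mrp genes in replicate 1 (exact 95% interval 0.800 to 1.23) and 1.26 times in replicate 2 (0.871 to 1.79). Chchd1, of the small subunit, had 18 and 6 counts and a density of 143 ± 9.50 (SD, n = 2). Gadd45gip1, of the large subunit, had 20 and 7 counts and 87.2 ± 8.78. Ptcd3, a long small-subunit protein with pentatricopeptide repeats, led this list in CPM with 17 and 10 counts and had a density of 32.9 ± 14.9. Aurkaip1 had 13 and 8 counts, and Dap3, a GTP-binding protein of the small subunit, 19 and 5. Ict1, a peptidyl-tRNA hydrolase built into the large subunit, had 10 and 1. Of the 5 tested, 0 were called by the adjusted exact binomial test and 0 at an unadjusted p under 0.05.

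The factors that run and build the mitoribosome had fewer footprints per coding length than its proteins, but their coding lengths are greater, with medians of 1235 and 1140 nucleotides against 567. For 12 mitochondrial translation factors the ratio to the Mrp genes was 0.283 in replicate 1 (exact 95% interval 0.224 to 0.354) and 0.329 in replicate 2 (0.218 to 0.481). Tufm, the elongation factor that brings tRNA to the ribosome, was the highest with 40 and 7 counts and 65.3 ± 24.8 in density. Gfm1, which drives translocation, had 8 and 6 counts and 16.7 ± 9.998, and Mrrf, which recycles ribosomes, 6 and 4 counts and 32.9 ± 17.4 (each SD, n = 2). Only Tufm passed the count filter, and it was not called (log2 ratio -0.78, adjusted exact binomial p = 0.881). Per transcript length the ratio of the list was 0.426 (0.337 to 0.532) and 0.494 (0.327 to 0.722). Among genes of 756 to 1329 coding nucleotides, 7 factors and 25 Mrp genes, it was 0.841 (0.633 to 1.10) and 0.706 (0.400 to 1.18). At like lengths the intervals thus include 1, so a lower density of this list was not resolved there. Tufm, at 65.3, had the most counts of these 7 factors. Of the others only Mrrf, at 32.9, was above 26.7, the median density of the 25 Mrp genes. The ratio without Tufm was not computed.

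For 24 assembly and partner factors the ratio was 0.353 in replicate 1 (0.302 to 0.411) and 0.319 in replicate 2 (0.235 to 0.427). Lrpprc, which stabilises mitochondrial messenger RNA, led with 49 and 10 counts. Oxa1l, the inner-membrane insertase that binds the mitoribosome, had 26 and 3, and Dhx30, a helicase of large-subunit assembly, 12 and 6. Rbfa, a maturation factor of the small subunit, had 21 and 0 counts (adjusted exact binomial p = 0.146). Of the 3 tested, 0 were called and 1 had an unadjusted exact p under 0.05. Per transcript length the ratio of the list was 0.516 (0.442 to 0.602) and 0.467 (0.344 to 0.625). Among genes of 756 to 1329 coding nucleotides, 14 factors and 25 Mrp genes, it was 0.554 (0.435 to 0.701) and 0.457 (0.284 to 0.715), with intervals below 1 in each library.

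Genes for the cytosolic ribosome and for the respiratory chain stood above the family. The 76 cytosolic ribosomal protein genes had a median density of 248 in replicate 1 and 237 in replicate 2. Their summed density was 5.48 times that of the Mrp genes in replicate 1 (exact 95% interval 5.09 to 5.91) and 5.25 times in replicate 2 (4.58 to 6.03). The 80 nuclear-encoded subunits of the respiratory chain and ATP synthase, which assemble with the mitochondrially made subunits, had medians of 282 in each library. Their ratio to the Mrp genes was 6.16 (5.73 to 6.63) and 6.23 (5.47 to 7.13). Per transcript length the pooled ratios rose to 7.66 and 7.91. Cytosolic ribosomal protein genes share fragments with many pseudogenes, so their level is less certain than the counting interval shows.

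**Figure D4:**
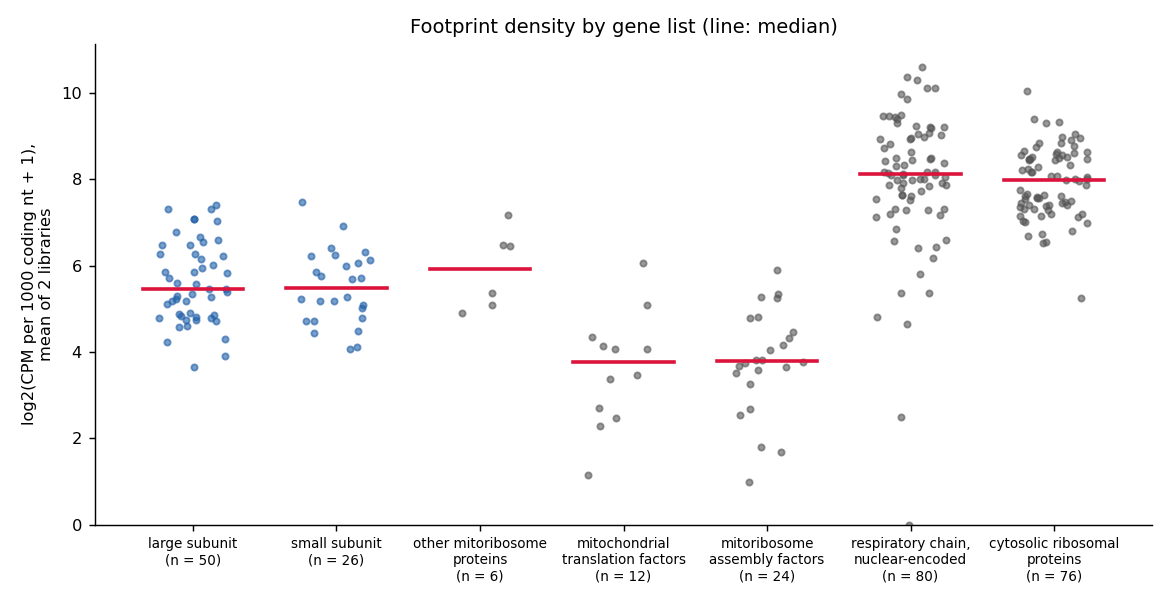
Footprint density per gene as log2(CPM per 1000 coding nucleotides + 1), the mean of both libraries, for the large- and small-subunit genes (blue) and 5 other lists (grey). Red lines are medians. The medians of both subunits lie above those of the translation and assembly factors and below those of respiratory chain subunits and cytosolic ribosomal proteins, while single genes of the lists overlap. Coding lengths differ between the lists.

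Start sites of the genes were taken from the RefSeq promoter table (build GRCm38.p6), which matched 68 of the 77 symbols with 74 promoters. Mrpl4, Mrpl13, Mrpl15, Mrpl19, Mrpl38, Mrpl54, Mrps28, Mrps34 and Mrps35 were unmatched. Cytosolic ribosomal protein mRNAs are known for a 5' terminal oligopyrimidine tract (TOP), a cytosine at the cap followed by pyrimidines, through which growth signalling controls their translation. A TOP-like start was scored as a C at the first transcribed base followed by 4 bases that are each C or T. It was found in 0 of 68 Mrp genes (Wilson interval up to 5.35%), in 13 of 56 cytosolic ribosomal protein genes (23.2%) and in 2.67% of 17491 protein-coding genes. The count rests on the annotated start base. It left out 43 of the 56 cytosolic genes, a class known for the tract, so the 0 does not establish that Mrp mRNAs lack it. The interval for the Mrp genes also includes the 2.67% of protein-coding genes. The windows below run from 10 bases before to 10 bases after the start, with the transcribed bases in capitals. They show Mrpl11 and Mrpl43, which had the most counts, Mrps6, which had the highest mean density, the multi-copy Mrpl12, and then 3 of the 13 cytosolic genes.

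Mrpl11 (chr19:4962296-4962315, + strand): ccgaacacgaGGGCCCTTCA
Mrpl43 (chr19:45006433-45006452, - strand): ggaagtcaccGGTTAGTCCC
Mrps6 (chr16:92058326-92058345, + strand): tcgccgtccgGGAGCTGACC
Mrpl12 (chr11:120484627-120484646, + strand): gcctcctcccGGATAGAGCG
Rpl15 (chr14:18270977-18270996, - strand): agaaagccttCTTCCTTTCC
Rpl28 (chr7:4792955-4792974, + strand): tctcgtgtctCTCTTTCCGT
Rpl35 (chr2:39005122-39005141, - strand): ccgccctttcCTCTTTCTCT

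The cytosolic examples were taken from the genes scored as TOP-like, which 43 of the 56 were not, so their contrast with the Mrp genes shown was fixed by that choice. Of the 74 Mrp promoters, 41 start with G, 13 with A, 11 with C and 9 with T. Of the 66 cytosolic ones, 23 start with G and 20 with C. Mrpl17 and Mrpl36 are Mrp genes that start with C without 4 further pyrimidines.

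Mrpl17 (chr7:105811078-105811097, - strand): cgcatgcgtcCTCTGAGACG
Mrpl36 (chr13:73330999-73331018, + strand): tggcgtcccaCTCCACTGCG

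Promoters of genes for mitochondrial proteins are known to hold sites for ETS-family factors, NRF1 and YY1. These were searched on both strands in the 300 bases from 250 before to 50 after each start, as CCGGAAG for ETS, GCGCATGCG for NRF1 and AAGATGGCG for YY1. The first and the last can overlap in the letters AAG, and each motif was counted on its own. CCGGAAG was found in 25 of 68 Mrp genes (36.8%), against 12.9% of 17491 protein-coding genes, 41.1% of cytosolic ribosomal protein genes and 24.6% of respiratory chain genes. AAGATGGCG was found in 8 Mrp genes (11.8%), against 2.14% of protein-coding genes, 5.36% of cytosolic ribosomal protein genes and 10.8% of respiratory chain genes. GCGCATGCG was found in 7 (10.3%), against 2.61%, 5.36% and 12.3% in the same order. Where a further C had to follow, the values were 3 Mrp genes (4.41%) and 1.47% of protein-coding genes. The shorter form was taken after both were known. At least 1 of the 3 motifs was present in 35 of the 68 genes (51.5%), against 16.6% of protein-coding genes. Among cytosolic ribosomal protein genes the share was 51.8% and among respiratory chain genes 40.0%, so it is not particular to the Mrp genes. A match is a run of letters and not a bound site, and footprint counts do not bear on it.

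The 100 bases before the start are shown for 3 genes, with the motif in capitals. They were chosen as examples of each motif. Mrpl43 holds CCGGAAG at 2 places, Mrpl36 the reverse complement of AAGATGGCG, and Mrpl9 GCGCATGCG on both strands.

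Mrpl43 (chr19:45006443-45006542, - strand): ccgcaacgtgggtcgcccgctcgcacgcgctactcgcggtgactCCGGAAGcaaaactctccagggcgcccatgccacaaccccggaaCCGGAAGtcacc
Mrpl36 (chr13:73330909-73331008, + strand): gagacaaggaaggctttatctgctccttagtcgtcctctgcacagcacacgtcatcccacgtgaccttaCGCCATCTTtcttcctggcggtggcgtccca
Mrpl9 (chr3:94443236-94443335, + strand): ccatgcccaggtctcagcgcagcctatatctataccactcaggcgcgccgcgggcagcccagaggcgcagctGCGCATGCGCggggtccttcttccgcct

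Many of the genes start back to back with a neighbour. A start on the opposite strand, at most 1000 bases upstream, was annotated for 24 of 68 Mrp genes (35.3%), against 8.48% of 17491 protein-coding genes, 14.3% of cytosolic ribosomal protein genes and 24.6% of respiratory chain genes. Mrpl46 and Mrps11, both in the family, start 42 bases apart. They had 8 and 2 counts and 12 and 1 counts. Mrps12 starts 147 bases from Sars2, the mitochondrial seryl-tRNA synthetase, with 7 and 1 counts against 8 and 2. Mrpl47 starts 308 bases from Ndufb5, a subunit of respiratory complex I, which had 28 and 10 counts against 5 and 3. Mrpl18 starts 238 bases from Tcp1, a subunit of the cytosolic chaperonin, which had 78 and 16 counts against 7 and 1. Mrpl32 starts 205 bases from the proteasome gene Psma2, which had 67 and 14 counts against 12 and 4. Other neighbours had far fewer counts than the Mrp gene. Ska3 had 0 in both libraries against 15 and 7 for Mrpl57, and Eme1 0 in both against 11 and 1 for Mrpl27. Zfp189 had 1 and 0 against 19 and 6 for Mrpl50. Neighbours at a shared start region were thus found with like, higher and lower counts. The 77 genes are spread over 17 chromosomes, with 10 on chromosome 11 as the largest number.

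**Figure D5:**
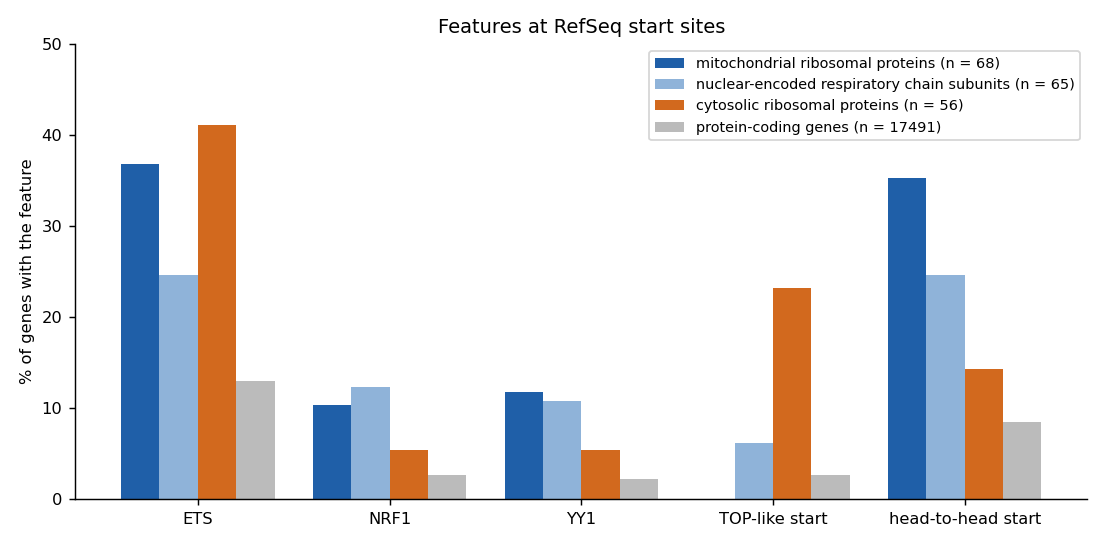
Share of genes, in %, with each feature at the RefSeq start site, for the Mrp genes, respiratory chain genes, cytosolic ribosomal protein genes and all protein-coding genes in the promoter table. A TOP-like start was found in 0% of Mrp genes and 23.2% of cytosolic ribosomal protein genes, and a head-to-head start in 35.3% and 14.3%.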

How the data were processed

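The authors deposited 1 table of whole-number footprint counts per Ensembl transcript and replicate, not normalised, with transcript lengths. Trimmomatic 0.36, Bowtie2 2.2.6, SAMtools and build GRCm38.p4 are named in the submitters' processing notes; the counting rule, strand setting and annotation release are not given in the sources used here. Count columns were matched to replicates by their number. For each gene the transcript with the highest summed count was kept, and its density used the protein-coding transcript with the highest summed count. CPM used edgeR 4.0.16 TMM effective library sizes from genes whose mean count was 10 or more; 1 count was worth 2.71 CPM in replicate 1 and 8.93 in replicate 2. With 1 group, the test was a 2-sided exact binomial per gene (scipy 1.17.1), with Benjamini-Hochberg adjustment at 0.05 over 5436 genes. It compares libraries, not conditions. A trial on simulated data drew Poisson counts, which the test itself assumes. That trial does not bear on spread beyond counting error. Density ratios carry exact conditional binomial intervals, which cover counting error only. Named genes are the extremes of CPM, density and log2 ratio, stalk and S18 genes, and the leading genes of the lists; other members were added after their values were seen. Members and lists were chosen with earlier results of these data known.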

Additional observations from a re-analysis of the deposited data

How the results depend on the processing

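No paired analysis was possible because a single group was measured. The 17 members past the filter became 56 with isoforms summed, 77 with at least 1 count in each library and 58 at a mean of 5 or more, and ranged from 1 to 44 across the fits without 1 replicate. A mean of 50 or more left no member to test. The count of called members, 0, became 1 with isoforms summed (Mrpl15) and was 0 under each of the 6 other alternatives. The family's share of 0.243% became 0.314% among protein-coding genes alone, by construction, and ranged from 0.229 to 0.256% without 1 replicate. The median density of 44.0 became 49.1 with isoforms summed and 57.0 among coding genes alone, and ranged from 42.1 to 45.8 without 1 replicate. The median log2 ratio of 0.13 reversed to -0.069 with library totals, -0.35 with isoforms summed, -0.19 with at least 1 count in each library and -0.022 at a mean of 5 or more. The median of all genes tested was 0.0041, and in the same order -0.20, -0.014, -0.043 and -0.022, so with library totals the family stayed above all genes and the sign came from the scaling. The ratio of large to small subunit, 1.14 with a pooled interval above 1, reversed to 0.937 with isoforms summed, fell to 1.03 per transcript length, and was 1.136 to 1.137 without 1 replicate, where the intervals include 1 with fewer counts. With Mrps30 and Mrps18a moved to the small subunit by name it was 1.21 (1.07 to 1.37), and with the longest coding isoform 1.18 (1.03 to 1.34). The ratios of cytosolic ribosomal proteins and respiratory chain genes to the family stayed above 1 under all 5 alternatives, from 5.25 to 7.66 and from 6.16 to 7.91. Mrpl12 stood at 1.51 to 2.42 times the large-subunit median. Per transcript length, matched lengths and by gene name were chosen after seeing the data. Where no construction is named, the cause was not tested.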
